A study of Mus musculus with 84 samples.

Results

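Among 84 single endothelial-sorted cells of the mouse embryo, 41 carried high transcript levels of both Fos and Egr1, and 21 carried low levels of both. The classes were chosen by measured values: a cell was called both high with Fos and Egr1 each at TPM 10 or more (TPM is a length-normalised share of a cell's transcripts), and both low with each under TPM 10. The other 22 cells had 1 of the genes at TPM 10 or more (12 Fos only, 10 Egr1 only). They stayed out of the main differences and are shown in the figures of single cells and in some counts. The 41 cells made up 48.8% of the cells (95% Clopper-Pearson interval 37.7% to 60%) and the 21 cells 25% (16.2% to 35.6%), with intervals that cover counting error over cells only. All cells came from the aorta-gonad-mesonephros (AGM) region, the trunk tissue around the dorsal aorta, at E11.5 (embryonic days). The sort kept cells with the endothelial surface proteins CD31, the product of Pecam1, and CD144, that of Cdh5, and removed cells with CD41 (gene Itga2b) or CD45 (gene Ptprc), which mark blood cells. Cells were captured on a microfluidic chip made for diameters of 10 to 17 µm, and full-length cDNA of each was sequenced. The labels give no strain, genotype, treatment or embryo, so the cells are 1 group and count as 1 sample. No test, p-value or standard error can therefore be given for any difference between the classes, and sizes are described.

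Fos and Egr1 are immediate early genes: they are transcribed within minutes of a stimulus from transcription factors already present in the cell, without new protein synthesis. Growth factors, mechanical force, serum, heat and the enzymatic release of cells from tissue are all known to induce them. Fos protein pairs with Jun proteins as the AP-1 factor, and Egr1 is a zinc finger factor that binds GC-rich sites. Endothelial cells are known for strong immediate early responses to flow and to growth factors.

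The promoters of 5 genes of this class are shown because they carry the sequence elements through which immediate early genes are known to be induced, and because Fos was used to choose the cells and the other 4 had higher levels in the both-high cells. Each is the 250 bases before the RefSeq start on GRCm38.p6, 5′ to 3′ on the gene's strand, and capitals mark every match on either strand to TGACG (the core of the cyclic AMP response element), GCGNGGGCG (the site of Egr factors), TATAAA (the TATA box), TGANTCA (the AP-1 site), GAANNTTC (paired heat shock units) and the CArG box of serum response factor. Ccn1 is the RefSeq symbol of Cyr61.
Fos (chr12:85473640-85473889, + strand): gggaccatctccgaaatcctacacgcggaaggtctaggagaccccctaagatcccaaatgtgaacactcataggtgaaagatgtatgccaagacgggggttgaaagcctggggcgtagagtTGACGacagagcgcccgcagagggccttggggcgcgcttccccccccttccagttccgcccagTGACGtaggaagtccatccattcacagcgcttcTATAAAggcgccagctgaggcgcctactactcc
Fosb (chr7:19310046-19310295, - strand): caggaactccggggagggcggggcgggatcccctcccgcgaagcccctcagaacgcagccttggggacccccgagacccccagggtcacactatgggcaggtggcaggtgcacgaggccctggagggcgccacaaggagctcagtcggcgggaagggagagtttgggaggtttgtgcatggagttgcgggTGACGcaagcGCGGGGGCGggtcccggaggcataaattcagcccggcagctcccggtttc
Zfp36 (chr7:28379229-28379478, - strand): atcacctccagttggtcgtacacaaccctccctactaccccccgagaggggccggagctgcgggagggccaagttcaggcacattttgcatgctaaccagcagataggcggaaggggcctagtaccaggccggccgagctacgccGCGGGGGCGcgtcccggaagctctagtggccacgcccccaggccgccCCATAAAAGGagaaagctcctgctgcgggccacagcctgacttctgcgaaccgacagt
Dusp2 (chr2:127335909-127336158, + strand): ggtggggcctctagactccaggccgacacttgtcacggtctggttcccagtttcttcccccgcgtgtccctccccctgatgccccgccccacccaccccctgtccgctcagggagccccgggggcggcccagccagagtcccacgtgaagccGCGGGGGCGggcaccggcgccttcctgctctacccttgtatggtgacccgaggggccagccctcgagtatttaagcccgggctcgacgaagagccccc
Ccn1 (chr3:145649986-145650235, - strand): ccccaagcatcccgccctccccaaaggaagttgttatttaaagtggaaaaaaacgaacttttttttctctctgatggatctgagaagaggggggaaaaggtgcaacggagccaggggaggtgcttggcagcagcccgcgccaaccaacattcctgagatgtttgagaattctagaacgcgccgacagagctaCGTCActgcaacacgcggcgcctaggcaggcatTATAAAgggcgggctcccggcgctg
The Fos window held TGACG at 129 to 125 and at 66 to 62 bases before the start, and TATAAA at 33 to 28 bases. In Fosb, TGACG lay 60 to 56 bases and an Egr site 50 to 42 bases before the start. Zfp36 held an Egr site and a CArG box, Dusp2 an Egr site, and Ccn1 TGACG and TATAAA. The genes shown were picked with their matches known. Among genes of this class that were also higher but are not shown, the Jun window held only paired heat shock units. That of Gadd45g held only TATAAA and that of Socs3 an Egr site. Elements further than 250 bases before a start were not searched.

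Over the 36 of 44 AP-1 and other immediate early genes with a promoter entry, TGACG was found in 58.3% of windows and the Egr site in 33.3%, against 19.8% and 5.33% of all 27025 promoters in the table. The windows of these genes were also richer in G and C, with a median of 65% against 52.4% over all promoters. Arterial genes, with a median GC content of 65.6%, held the Egr site in 33.3% of 15 windows, and heat shock genes, at 63.8%, held TGACG in 56.2% of 16. Pan-endothelial genes, at 57.7%, held TGACG in 25% and the Egr site in 8.33% of 12 windows. The paired heat shock unit was found in 37.5% of heat shock gene windows, in 8.33% of immediate early windows and in 7.73% of all. The CArG box was found in 5.56% of immediate early windows and 1.62% of all. A match describes letters in a window and is not a measured site.

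In the 41 both-high cells Fos ranged from 11.9 to 2285 TPM with a median of 175, and Egr1 from 12.8 to 1148 with a median of 153. In the 21 both-low cells the medians were 0.88 TPM for Fos (0 to 7.36) and 0.19 for Egr1 (0 to 9.47). These values define the classes and are no finding. Just inside the limit, cell 8 had Fos at 11.9 TPM, cell 34 had Egr1 at 12.8 and cell 70 had Egr1 at 12.9. Just outside it, cell 79 had Egr1 at 9.47 TPM, cell 83 had Fos at 7.36, and cell 4 had Fos at 13.4 but Egr1 at 9.28. The medians of the both-high cells lay far above the limit. Over all 84 cells, Fos reached TPM 10 in 53 and Egr1 in 51, and their log2(TPM + 1) levels had a Pearson r of 0.51 and a Spearman rho of 0.50, over cells that share a sort and a capture.

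**Figure D1:**
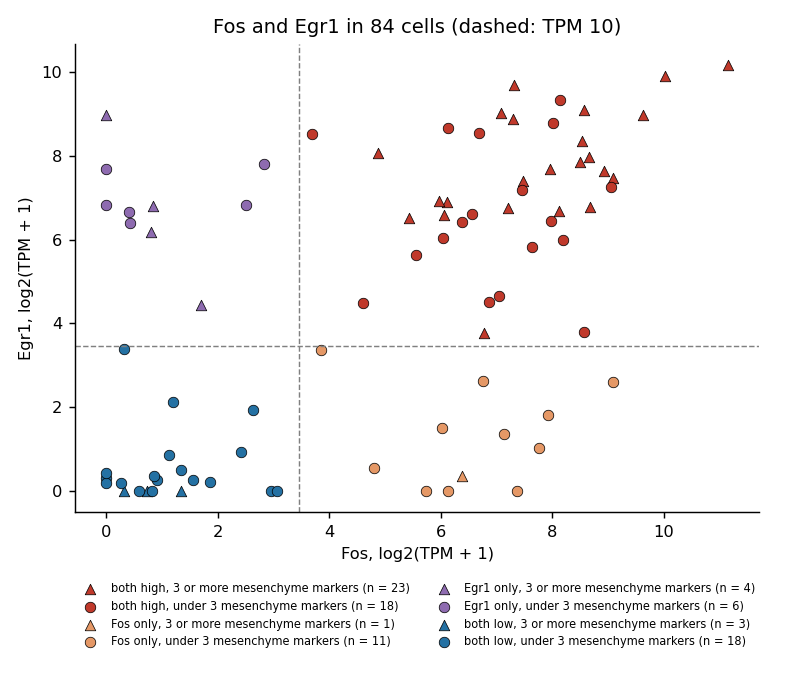
Fos against Egr1 in the 84 cells, both axes in log2(TPM + 1), with dashed lines at TPM 10, colours for the class and triangles for cells with 3 or more mesenchyme markers at TPM 10. The 41 both-high cells fill the upper right, and 23 of them are triangles, against 3 of the 21 both-low cells at the lower left.

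Both classes were spread over the library index sets, the technical grouping that the labels give. Each of the 7 second-index sets of 12 cells held 5 to 8 both-high and 1 to 4 both-low cells, and each of the 12 first-index sets of 7 held 1 to 5 and 0 to 3. A median of 7170 genes was detected at TPM 1 or more in both-high cells (5427 to 10073) and 6709 in both-low cells (6043 to 7575). Ribosomal protein genes took a median of 14.3% and 14.5% of TPM. TPM keeps no sequencing depth, so the reads behind each cell are unknown, and a 0 can be a transcript missed in capture. The part of detected-gene number in the differences below was not tested, apart from the values given for cells of middling gene number.

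Genes were compared by the difference of their mean log2(TPM + 1), both-high minus both-low, over the 12318 genes detected in at least 5 cells. This scale understates differences of low genes. A gene counted as past the fold at a difference of 1 log2 unit or more. By that measure 896 genes (7.27%) were higher and 300 (2.44%) lower in both-high cells, and the median of all genes was 0.12. Read as shares, 61% of all genes lay above 0 and 39% below.

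Some other immediate early genes were higher in the both-high cells and others were not. In the AP-1 family 2 of 9 measured genes were higher past the fold, against 7.27% of all genes, and 0 lower. Of the 9, 8 lay above 0, against 61% of all genes, with a median difference of 0.39. That median was -0.26 in the 21 both-high and 11 both-low cells between the quartiles of detected-gene number, and 0.64 without second-index set 4. Fosb, a close relative of Fos that also pairs with Jun (chr7:19302696-19310118), ranged from 0 to 65.9 TPM (median 2.77) in both-high cells and from 0 to 17.1 (median 0) in both-low cells. It reached TPM 10 in 12 of 41 cells (29.3%, interval 16.1% to 45.5%) and in 1 of 21 (4.76%, 0.12% to 23.8%), a difference of 1.76. Jun, the partner of Fos in AP-1, ranged from 0 to 230.4 TPM with a median of 22.8 in both-high cells, and from 0.30 to 197.9 with a median of 8.76 in both-low cells. Its difference was 1.09, and it reached TPM 10 in 31 of 41 and 9 of 21 cells, so the classes overlapped widely. Junb (0.48) and Mafk (0.42) were not past the fold, and Atf3, a stress-induced member, lay at -0.36.

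Of the other immediate early genes, 27 of 34 were measured in enough cells, with 7 past the fold in the higher direction, 0 in the lower, 21 above 0 and a median of 0.43. Over all genes 7.27% were higher past the fold, 2.44% lower and 61% above 0. Gadd45g, a growth arrest and damage response gene, had a median of 32.1 TPM in both-high cells (0 to 282.6) and 0 in both-low cells (0 to 106.8), a difference of 2.00. Cyr61, a secreted matrix protein induced by serum and stretch, had medians of 34.4 TPM (0 to 416.6) and 4.23 TPM (0 to 128.8), a difference of 1.63. Both genes were at 0 in some cells of each class, so their levels overlapped.

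Zfp36, which speeds the decay of immediate early mRNAs, reached TPM 10 in 13 of 41 both-high cells and 1 of 21 both-low cells, a difference of 1.49. Dusp2, a phosphatase that acts on MAP kinases, did so in 20 and 7 cells, with a difference of 1.36. Myc, a growth regulator, had medians of 41 and 8.92 TPM and a difference of 1.21. Ier2 had medians of 25.1 and 14.3 TPM (difference 1.11), and Socs3, an inhibitor of cytokine signalling, reached TPM 10 in 6 and 0 cells (difference 1.07). Several classic members did not follow: Dusp1 lay at 0.35 with medians of 59 and 41.5 TPM, and Btg2, an antiproliferative gene, at -0.40 with medians of 162.5 and 233.2 TPM. Egr2, Egr3, Arc, Fosl1 and Ptgs2 were detected in too few cells to be compared. Of the 9 genes past the fold in these lists, 7 had a promoter entry, of which 4 held the Egr site and 2 held TGACG. Over all 36 windows of these lists the shares were 33.3% and 58.3%. Whether these sites have a part in the differences was not tested.

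Feedback genes of the ERK pathway, which are known to follow growth factor signalling, differed little. Of 10 measured, 0 were past the fold in either direction and 8 lay above 0, against 61% of all genes, with a median of 0.25. Spry2 had the largest difference (0.70), with medians of 23.2 and 15.5 TPM, and Dusp6 lay at 0.37. With cells divided by Egr1 alone the list median was -0.0090, and without second-index set 6 it was 0.042 (0.16 without set 1 and 0.17 without set 2). Among 17 upstream regulators of these genes, 1 was higher past the fold, near the share of all genes (7.27%). It was Atf1, a factor that binds cyclic AMP response elements (1.51, at TPM 10 in 23 of 41 and 5 of 21 cells). Srf, the CArG box factor, lay at 0.72 and the stress kinase genes Mapk14 and Mapk8 at 0.91 and 0.80.

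The heat shock genes as a list lay near the median of all genes. Of 19 measured, 2 were higher and 1 lower past the fold and 11 lay above 0, near the shares of all genes (7.27%, 2.44% and 61%). The list median was 0.06. It ran from -0.045 (without second-index set 4) to 0.14 (without set 5) on leaving out index sets. Dnajb1, a heat-inducible co-chaperone of Hsp70 (chr8:83608175-83612653), had medians of 43.5 TPM (0 to 192.1) in both-high and 9.83 TPM (0 to 272.8) in both-low cells, and reached TPM 10 in 34 of 41 and 10 of 21. Its difference was 1.53, and that of Dnajb4 was 1.24. Bag3, another heat-inducible co-chaperone, went the other way at -1.35, with medians of 3.24 and 9.85 TPM. Without the cells carrying mesenchyme markers described below, 2 heat shock genes were higher and 0 lower past the fold, so Bag3 was not. Over all genes 10.1% were then higher and 3.66% lower. Hspa8, the constitutive Hsp70, lay at 0.06 and was abundant in every cell of both classes, with medians of 7584 and 7241 TPM. Its lowest level was in cell 78, a Fos-only cell, at a log2(TPM + 1) of 7.22. The inducible Hspa1a and Hspa1b lay at 0.15 and 0.05, and reads shared by these near-identical genes may have been split between them. Hspa1a reached TPM 10 in 1 both-high and 0 both-low cells.

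In the integrated stress and unfolded protein response list, 2 of 13 genes were higher past the fold, against 7.27% of all genes, and 0 lower. The list median was 0.26 (0.13 to 0.17 without second-index sets 1, 2 or 4). Ppp1r15a, which restores translation after stress and is itself induced with immediate early genes, had medians of 58.1 TPM (0 to 296.7) and 5.25 TPM (0 to 296.9). It reached TPM 10 in 35 of 41 cells (85.4%, 70.8% to 94.4%) and 9 of 21 (42.9%, 21.8% to 66%), a difference of 1.77. Asns, the asparagine synthetase, differed by 1.70 with medians of 143.3 and 41.3 TPM, while Hspa5, the main endoplasmic reticulum chaperone, lay at -0.28. For Asns the difference was 0.32 without the cells carrying mesenchyme markers described below, and for Ppp1r15a it was 2.14.

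The remaining stress lists split in both directions. Over all genes 7.27% were higher and 2.44% lower past the fold, so 1 of 10 higher is near the share of all genes. Of 10 oxidative and metal stress genes, 0 were higher and 1 lower past the fold: Txnip, an inhibitor of thioredoxin, at -1.27 with medians of 17.8 and 64 TPM (list median -0.03). Of 10 p53 targets 1 was higher, Mdm2, the ligase that degrades p53, at 1.07 (list median 0.13). Without the cells carrying mesenchyme markers 0 p53 targets were higher past the fold, against 10.1% of all genes, and their median was -0.065. Of 10 measured NF-kB and inflammatory genes 2 were higher (list median 0.26): Irf1, an interferon-response factor (1.65), and the chemokine Cxcl12 (1.18). Cxcl12 lay at -0.19 without the cells carrying mesenchyme markers and at -0.056 with the Fos and Egr1 limit at TPM 1. The list median was -0.048 in the cells between the quartiles of detected-gene number, 0.026 with cells divided by Egr1 alone and 0.50 without second-index set 2. The inflammatory genes Cxcl2, Il6, Sele and Selp were at 0 in all 84 cells. Among 10 hypoxia genes 1 was higher, Bnip3, a mitophagy gene, at 1.05 (0.13 without the same cells), and the list median was -0.01.

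**Figure D2:**
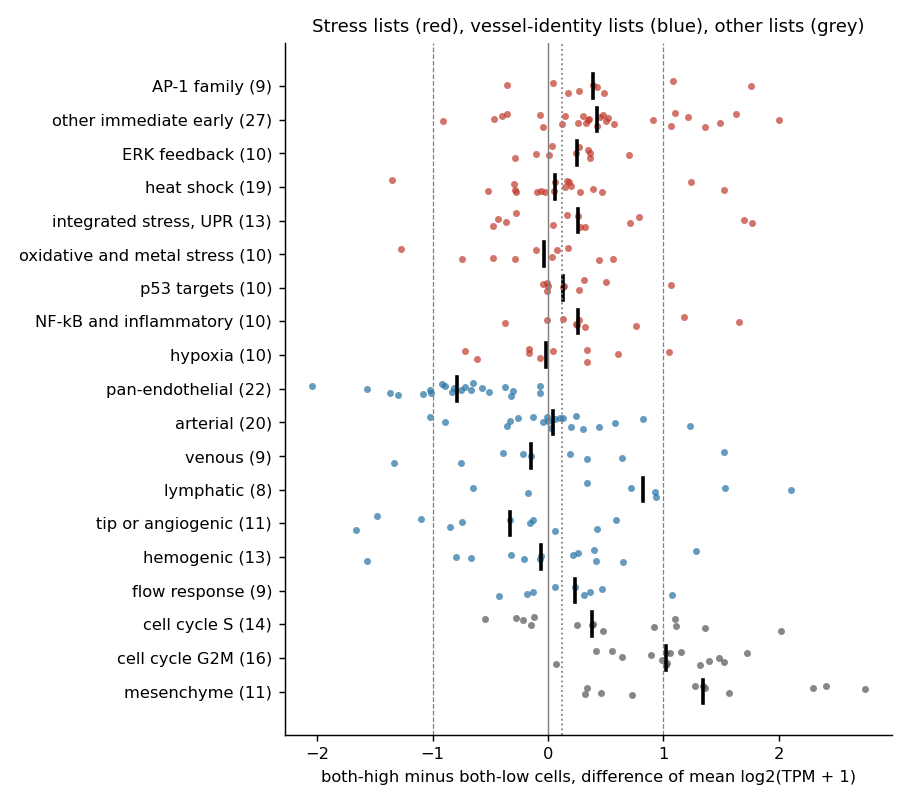
Difference of mean log2(TPM + 1), both-high minus both-low cells, for each measured gene (points) of 19 lists, with the list median as a black bar, the median of all genes (0.12) as a dotted line and 1 log2 unit as dashed lines; the number of genes is in brackets. The pan-endothelial genes all lie below 0, the G2M and mesenchyme genes all above it, and the heat shock and arterial genes on both sides.

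Genes that mark endothelial identity in general were lower in the both-high cells. All 22 pan-endothelial genes lay below 0, against 39% of all genes. Past the fold 7 were lower, against 2.44% of all genes, and 0 higher, with a list median of -0.79. Esam, an endothelial junction protein (chr9:37528089-37538319), ranged from 0 to 774.7 TPM (median 84.6) in both-high and from 0 to 920.6 (median 205.2) in both-low cells. It reached TPM 10 in 26 of 41 and 19 of 21 cells, a difference of -2.05. Cd34, a sialomucin of endothelial and blood progenitor cells, had medians of 222.9 TPM (0.20 to 1346) and 433.6 TPM (1.66 to 1365), a difference of -1.57. Every both-high cell had Esam within the range of the both-low cells, which itself reached 0 in cells 6 and 12. Most both-high cells also had Cd34 within the both-low range, and some lay below its lowest value of 1.66 TPM.

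Robo4 (-1.37) and Mmrn2 (-1.30), both endothelial membrane or matrix proteins, Tie1 (-1.08), a receptor kinase, Plvap (-1.02), a protein of fenestrae and caveolae, and Ecscr (-1.01), an endothelial surface protein, were the other named members past the fold. Kdr, the main VEGF receptor, lay at -0.30 and Cldn5, a tight junction protein, at -0.07. Of the sort gate genes, the endothelial pair also had lower means: Pecam1 differed by -1.23 and Cdh5 by -0.49. For Pecam1 the medians were 148.6 TPM (0.64 to 443.1) in both-high and 132.1 TPM (50.3 to 819.8) in both-low cells, so its mean log2 level was lower in both-high cells while its median was not. Pecam1 and Cdh5 were both at TPM 10 or more in 34 of 41 both-high cells (82.9%, 67.9% to 92.8%) and in 21 of 21 both-low cells (100%, 83.9% to 100%). Ptprc was at 0 in every cell, and Itga2b, which was detected in 7 of 84 cells, lay at 0.32 and reached TPM 10 in 1 both-high cell.

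The size of the pan-endothelial difference varied between subsets of the cells. Among cells with Pecam1 and Cdh5 both at TPM 10 or more the list median was -0.31, with Esam at -1.62, Cd34 at -0.95, Pecam1 at -0.39 and Cdh5 at -0.10. Without the 12 cells of second-index set 4 the list median was -0.47, and with the Fos and Egr1 limit at TPM 1 it was -0.18. The list median stayed below 0 under each of the 22 alternatives run. Fewer than 11 of the 22 genes reached TPM 10 in 4 of 41 both-high cells, of which 3 carried mesenchyme markers, and in 1 of 21 both-low cells. The typical cell of each class kept most of the list, with a median of 18 genes at TPM 10 or more in both-high and 19 in both-low cells.

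**Figure D3:**
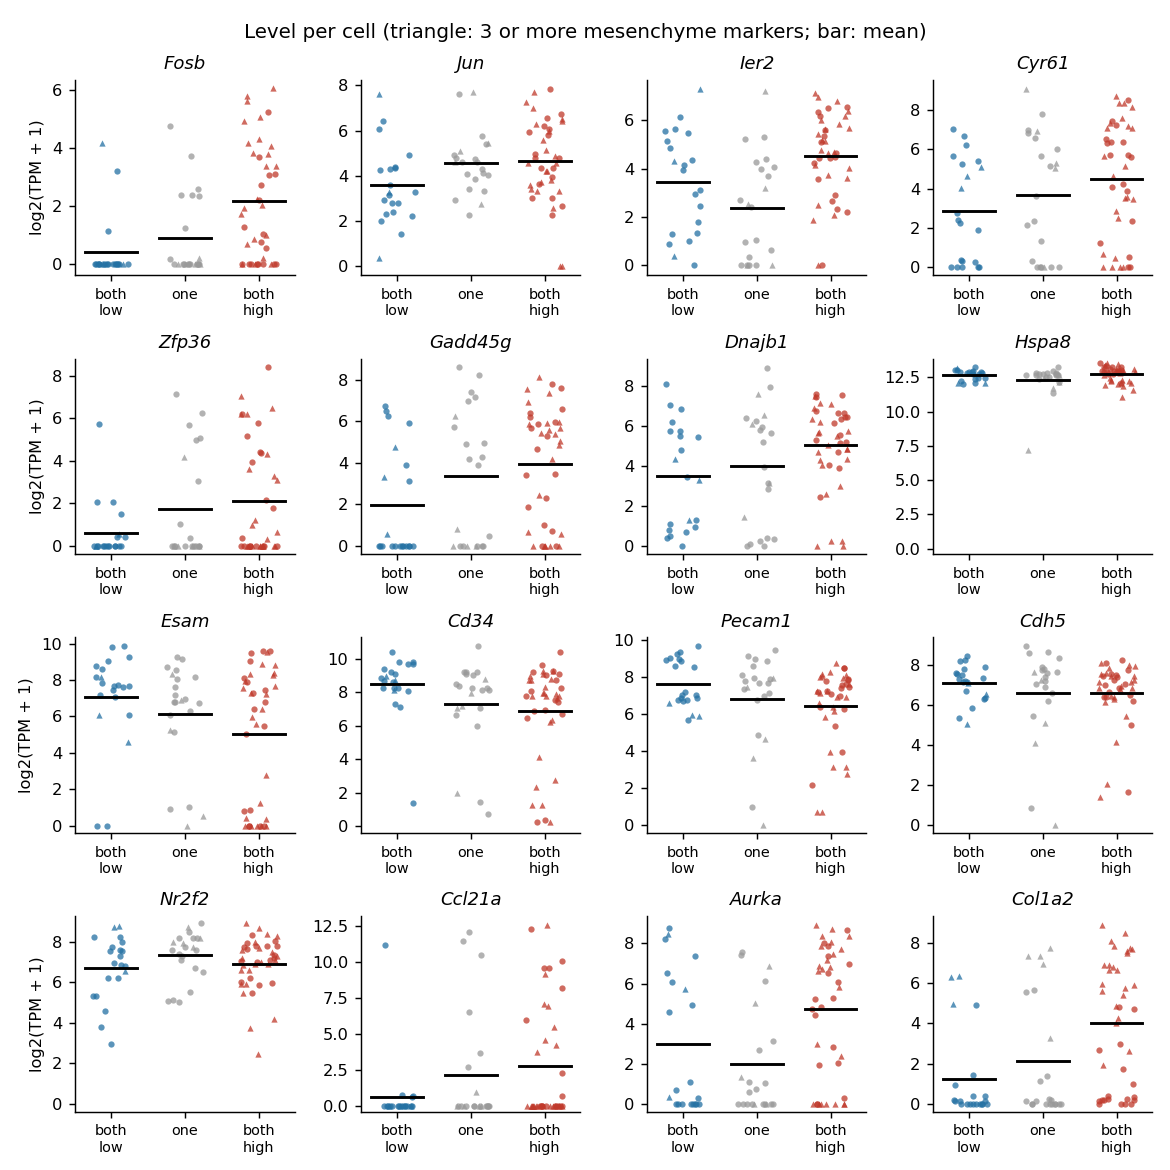
Level of 16 genes in each cell, in log2(TPM + 1), for the 21 both-low cells, the 22 cells with 1 of the genes high and the 41 both-high cells; bars are means and triangles mark cells with 3 or more mesenchyme markers at TPM 10. Fosb, Cyr61, Dnajb1 and Ccl21a have higher means in both-high cells, Esam, Cd34 and Pecam1 lower ones with a tail of cells near 0, and Hspa8 lies close to its mean in most cells.

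Genes of vessel type showed no single direction. Arterial genes lay on both sides of 0, with 11 of 20 above, against 61% of all genes. Past the fold 1 was higher, near the 7.27% of all genes, and 1 lower, against 2.44%. The arterial median was 0.05 (-0.17 without second-index set 3 and 0.19 without set 2). Gja4, an arterial connexin, differed by 1.23 and reached TPM 10 in 12 of 41 and 2 of 21 cells, with a highest level of 1719 TPM. Notch4 lay at -1.03 and the co-receptor Nrp1 at -0.90, while Dll4, a Notch ligand, lay at 0.06, Efnb2 at 0.24 and Sox17 at 0.44. Venous genes were also divided, 4 of 9 above 0, against 61% of all genes. Past the fold 1 was higher, near the share of all genes (7.27%), and 1 lower (2.44% of all genes). The venous median was -0.15, and 0.26 with the Fos and Egr1 limit at TPM 1. Dab2, an endocytic adaptor, was higher (1.52; medians 55.9 and 10.1 TPM), and Aplnr, the apelin receptor, lower (-1.34; medians 108.2 and 238.1 TPM). Aplnr lay at 0.22 with the Fos and Egr1 limit at TPM 1. Nr2f2, the factor that sets venous identity, lay at 0.19 and reached TPM 10 in 40 of 41 and 20 of 21 cells.

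Lymphatic genes had a median of 0.83, with 6 of 8 above 0, 2 past the fold in the higher direction and 0 in the lower. Over all genes 61% lay above 0 and 7.27% were higher past the fold. Ccl21a, a chemokine of lymphatic vessels (chr4:42772860-42773991), was at or above TPM 10 in 14 of 41 both-high cells (34.1%, 20.1% to 50.6%) and 1 of 21 both-low cells (4.76%, 0.12% to 23.8%), a difference of 2.11. Its median was 0 TPM in both classes and its highest level was 5853 TPM. Reads of Ccl21a may be shared with near-identical copies. Pdpn, a lymphatic membrane protein, had medians of 8.72 and 0.35 TPM (1.53), Prox1, the factor that sets lymphatic identity, 7.18 and 0.51 TPM (0.94), and Lyve1 reached TPM 10 in 9 and 1 cells (0.93). Flt4, a receptor present in early veins and in lymphatics, lay at -0.17. The list median ran from 0.54 to 0.99 on leaving out each second-index set and was 0.12 with cells divided by Fos alone.

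Of 11 tip cell or angiogenic genes 8 lay below 0, against 39% of all genes, and 3 were lower past the fold, against 2.44%, with a median of -0.33. The median was -0.70 without second-index set 1 and -0.15 without set 2. Without the cells carrying mesenchyme markers 6 of the 11 lay below 0, against 40% of all genes, and the median was -0.40. Past the fold 2 were then lower, against 3.66% of all genes, and 1 higher, against 10.1%. Kcne3, a potassium channel subunit of tip cells, had medians of 27.2 TPM (0 to 2959) and 207.9 TPM (0 to 2477), a difference of -1.67. Adm, a vasoactive peptide, lay at -1.48 and Apln, the apelin ligand, at -1.10, while Angpt2 lay at 0.59. Of 13 measured hemogenic genes 6 lay above 0, against 61% of all genes, with a median of -0.06. Past the fold 1 was higher, near the 7.27% of all genes, and 1 lower, against 2.44%. Cbfb, the partner of Runx1, was the higher one at 1.28, and Cd34 was the lower one. Without the cells carrying mesenchyme markers 0 hemogenic genes were higher and 2 lower past the fold, with a median of 0.068. Over all genes 10.1% were then higher and 3.66% lower. Runx1 itself was detected in 10 of 84 cells and reached TPM 10 in 3 both-high and 0 both-low cells. Flow response genes had a median of 0.24, which was -0.020 without second-index set 7, -0.027 with cells divided by Egr1 alone and 0.062 as the mean within index sets. Of 9 flow genes 1 was higher and 0 lower past the fold, near the shares of all genes (7.27% and 2.44%). It was Klf4 (1.07, at TPM 10 in 20 of 41 and 7 of 21 cells), with Klf2 at 0.47 and Nos3 at -0.42. Klf6 lay at 0.36, and at 1.62 without the cells carrying mesenchyme markers. Klf4 and Klf2 are known both as flow-induced and as early response genes.

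Markers of mesenchyme, a cell type outside the sort gate, moved with the class. The whole list of 11 lay above 0, against 61% of all genes, with 7 past the fold, against 7.27%, and a median of 1.34. A both-high cell held a median of 3 of the 11 at TPM 10 or more (0 to 8) and a both-low cell 0 (0 to 6), and their summed level ranged from 0.24 to 2847 TPM (median 104.9) against 0.11 to 492.1 (median 2.61). The collagen genes Col1a2 and Col3a1 differed by 2.75 and 2.42, and Prrx1, a mesenchymal transcription factor, by 2.30. Col1a2 had medians of 25.5 TPM (0 to 471.2) and 0.10 TPM (0 to 80). At least 3 of the markers reached TPM 10 in 23 of 41 both-high cells (56.1%, 39.7% to 71.5%) and 3 of 21 both-low cells (14.3%, 3.05% to 36.3%), and in 1 of 12 Fos-only and 4 of 10 Egr1-only cells. Of these 23 cells, 18 had Pecam1 and Cdh5 both at TPM 10 or more.

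Fos and Egr1 were also higher in the both-high cells with these markers, with medians of 249.5 and 204.4 TPM, than in those without, at 123.6 and 85.8 TPM. The comparison was therefore repeated without cells of 3 or more markers, leaving 18 and 18 cells. Among those, 1248 genes (10.1%) were higher and 451 (3.66%) lower past the fold, 59.7% of all genes lay above 0 and 40% below, and the mesenchyme median was 0.09, which the choice of cells itself lowers. The other immediate early genes then had a median of 0.34 with 7 of 27 past the fold, the AP-1 genes 0.21 with 3 of 9, and the pan-endothelial genes -0.59 with 7 of 22 lower and 19 below 0. Gadd45g (2.35), Cyr61 (1.98), Myc (2.04), Zfp36 (1.68), Jun (1.29) and Dnajb1 (2.21) were each further apart than in all cells, while Fosb lay at 1.07. Esam lay at -2.00 and Cd34 at -1.10. The lymphatic median was 0.82 and the arterial median 0.09.

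**Figure D4:**
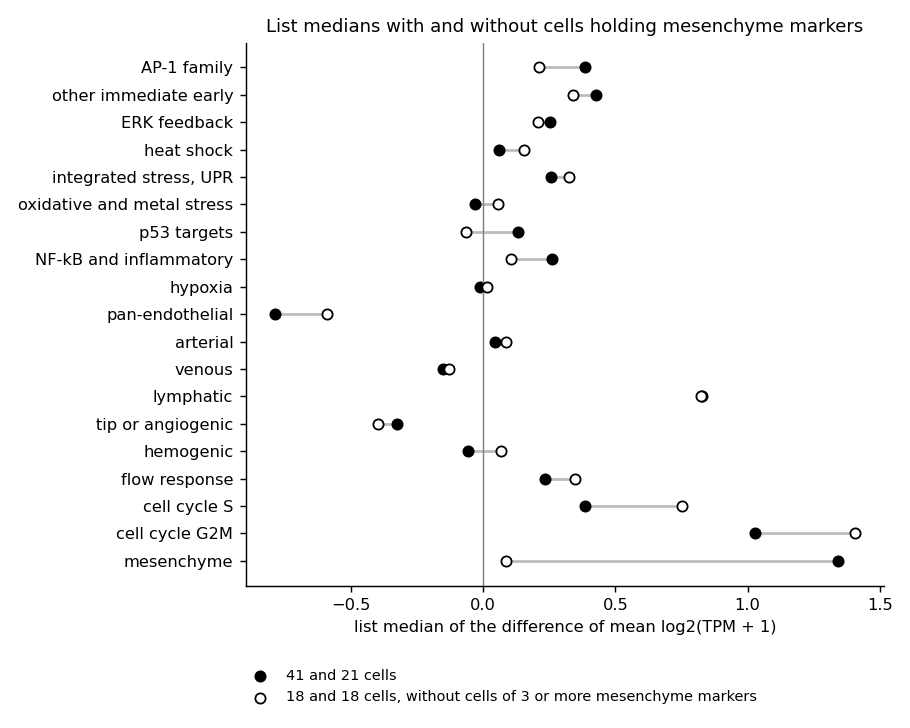
List medians of the difference of mean log2(TPM + 1) for 41 both-high and 21 both-low cells (filled) and for the 18 and 18 cells with under 3 mesenchyme markers at TPM 10 (open). The mesenchyme median goes from 1.34 to 0.09, while the lymphatic, pan-endothelial and G2M medians stay on their side of 0.

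Smooth muscle markers were seen in few cells: Acta2, smooth muscle actin, reached TPM 10 in 10 of 41 both-high and 0 of 21 both-low cells (1.85), Tagln in 6 and 1 (0.82), and 4 of the 8 markers were detected too rarely to compare. Pdgfrb differed by 1.07, and by -0.086 without the mesenchyme-marker cells. Erythroid, macrophage, megakaryocyte or platelet, epithelial and neural lists each had a median of 0 markers at TPM 10 in both classes. At least 3 markers of the respective list reached TPM 10 in 2 both-high and 1 both-low cells for erythroid genes, in 0 and 0 for macrophage genes, in 2 and 0 for megakaryocyte or platelet genes, in 1 and 1 for epithelial genes and in 1 and 2 for neural genes. The part of these cells in the differences was not tested.

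Genes of mitosis were higher in both-high cells, and those of S phase were divided. All 16 G2M genes lay above 0, against 61% of all genes, and 10 were past the fold, against 7.27%, with a median of 1.03. Aurka, a kinase of the mitotic spindle, had medians of 54.8 TPM (0 to 480.1) and 0.62 TPM (0 to 429.3), a difference of 1.73, and reached TPM 10 in 26 of 41 and 9 of 21 cells. Plk1, another mitotic kinase, differed by 1.52, Aurkb by 1.48 and Mki67, a proliferation antigen, by 1.39. Of 14 S phase genes 4 were higher past the fold, against 7.27% of all genes, and 9 lay above 0, near the share of 61%. The list median was 0.39. That median was -0.30 in the cells between the quartiles of detected-gene number, 0.067 without second-index set 6 and 0.66 without set 4. Cdc6, which loads the replicative helicase, differed by 2.02 and Mcm5, a subunit of that helicase, by 1.36. Both classes held cells with and without these transcripts, and no cell was assigned a phase. Without the mesenchyme-marker cells the G2M median was 1.41 and the S median 0.75.

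In the cells between the quartiles of detected-gene number, the other immediate early median was 0.32, the pan-endothelial median -1.0, the G2M median 0.59 and the mesenchyme median 1.14, each on the same side of 0 as in all cells.

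Among genes outside the lists that were detected in at least 20 cells, Capn6, a calpain-like protein, had the largest difference at 3.64, reaching TPM 10 in 20 of 41 and 0 of 21 cells, followed by the heparan sulfate proteoglycan Gpc3 (3.45), Ssbp2 (3.12) and the heparin-binding growth factor Ptn (2.77). Gpc3 had medians of 178.7 TPM (0 to 1910) and 1.31 TPM (0 to 1176). Without the mesenchyme-marker cells Ptn lay at 0.51, Gpc3 at 1.92 and Capn6 at 2.38, while Ssbp2 lay at 2.80, Bcl2l1, an inhibitor of apoptosis, at 2.74 (2.69 in all cells), Phgdh, the first enzyme of serine synthesis, at 2.61 (2.60) and Hagh, a glyoxalase, at 3.53 (2.72). Ssbp2 had medians of 82.9 TPM (0.26 to 843.6) and 3.23 TPM (0 to 194.4) and reached TPM 10 in 36 of 41 and 8 of 21 cells. Hdgfrp3, Sdr39u1 and Serpinf1 completed the 10 largest, between 2.62 and 2.66.

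On the lower side Nabp2 and Cpeb4 both lay at -2.25 and Gpihbp1, the capillary endothelial protein that carries lipoprotein lipase, at -2.18. Gpihbp1 had a median of 0 TPM in both-high cells (0 to 2003) and 84.2 TPM (0 to 721.3) in both-low cells, and reached TPM 10 in 15 of 41 and 13 of 21. G6pdx, the first enzyme of the pentose phosphate pathway, lay at -2.08, with medians of 0.16 and 41.8 TPM, and Slc29a1, a nucleoside transporter, at -2.00. Pwwp2b, Parl, Iqcb1, Calr3 and Rab4a lay between -2.13 and -1.93. Each of these genes overlapped between the classes.

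The genes whose levels were most like the mean of Fos and Egr1 over all 84 cells were ranked by Spearman rho among 9681 genes detected in at least 20 cells. Fosb was first at 0.56, followed by the collagen gene Col11a1 (0.48), Zfhx4 (0.46), Mcidas (0.45), Col1a2 (0.45), the Wnt receptor gene Fzd2 (0.45), Gpc3 (0.43), AK010878 (0.43), the growth factor gene Mdk (0.42) and Serpinf1 (0.42). These values are descriptions over cells of 1 sample that share the capture, and Fosb was the 1 AP-1 gene among them. Each of these genes had a smaller difference between the classes without the mesenchyme-marker cells. It went from 2.75 to 0.62 for Col1a2, from 1.41 to 0.58 for Col11a1 and from 2.15 to 0.93 for Zfhx4. For Serpinf1 it went from 2.62 to 1.25 and for Fosb from 1.76 to 1.07, while AK010878 changed least. The part of the mesenchyme-marker cells in the rho values was not tested. Mdk was detected in every cell, with medians of 818.9 TPM (124.8 to 2253) in both-high and 325.0 TPM (37.1 to 1848) in both-low cells.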

How the data were processed

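The deposited table gives TPM for 20308 genes in 84 cells. The authors' values are TPM scaled per cell, with column sums of 999998 to 1000002. Per the submitters' processing notes, the genome build was mm10, and the tools included RSEM 1.2.3, CASAVA 1.8.2 and Bowtie 0.12.9. The settings, step order and gene annotation of these tools are not stated in the labels used. Depth per cell is unknown, since TPM keeps none.

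The members and gene lists were chosen with earlier results of these data known. The promoters and motifs shown, the genes plotted per cell, the limit of 11 pan-endothelial genes and the choice of 15 lists for alternatives were chosen after values were seen. The 28 lists hold 332 genes, 10 of them on 2 lists, and 2 were matched by an older symbol. A rule marked for naming Fos, Egr1 and the sort gate genes, the 4 members with the largest difference in each list and every AP-1 or immediate early gene past the fold. It also marked the 10 unlisted genes with the largest difference in each direction and the 10 most like Fos and Egr1. Not all marked genes are named in the text. Among lists with no member named, 1 of 4 measured Y-linked genes was higher past the fold, against 7.27% of all genes. In the neural list 1 of 4 was lower, against 2.44% of all genes. In each class the number of Y-linked genes at TPM 10 or more ranged from 0 to 4 per cell. Other listed genes were named after their values were seen. Coordinates and promoters come from RefSeq on GRCm38.p6, the assembly of mm10, and 18956 symbols matched. Differences of mean log2(TPM + 1) were computed with Python 3.11.15, numpy 2.4.6 and pandas 2.3.3, intervals with scipy 1.17.1, and the calculation was tested on simulated data. Alternatives covered the Fos and Egr1 limit, the pseudocount, the gene filter, scaling, index sets and subsets of cells.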

Additional observations from a re-analysis of the deposited data

How the results depend on the processing

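Of 382 values of cell counts, gene counts and list medians under 22 alternatives, 365 stayed within 1.5 times the main count or moved by less than the SD over cells, 13 moved further and 4 changed sign from a median of at least 0.25 (a limit chosen after values were seen), so sign changes of smaller medians are not among them; for 135 named genes the numbers were 2965, 1 and 4 of 2970. The SD between single cells is wide, so staying within it does not show that a value is stable. Counted as within it were the mesenchyme median of 0.085 without the mesenchyme-marker cells (1.34 in the main comparison) and the venous median of 0.26 with the limit at TPM 1 (-0.15). With the Fos and Egr1 limit at TPM 1, 10 cells were both low, 720 genes were lower past the fold, Aplnr lay at 0.22 and Cxcl12 at -0.056. A pseudocount of 0.1 gave 2068 higher and 748 lower genes and Fosb at 3.45, and a pseudocount of 10 gave 105 and 40. Without the mesenchyme-marker cells 451 genes were lower, Cxcl12 lay at -0.19 and Pdgfrb at -0.086. Between the quartiles of detected genes 1086 were lower, with medians of -0.26 (AP-1), -0.048 (NF-kB and inflammatory) and -0.30 (S phase). Division by Fos alone gave 101 lower genes, and by Egr1 alone 445 higher genes and an ERK feedback median of -0.0090. Leaving out each second-index set gave 272 to 484 lower and 953 to 1093 higher genes; without sets 1, 3 and 7 there were 457, 459 and 484 lower. Scaling by median-of-ratios size factors changed the sign of 0 named genes and lists and set the median of all genes at 0.10. The subsets held fewer cells, and the cause of the changes under the alternatives was not tested. No paired analysis was possible because each cell has its own replicate number; the mean of the differences within second-index sets, which hold both classes, gave 914 higher and 428 lower genes and a pan-endothelial median of -0.90. Capture and unknown depth limit low genes, and the cells of 1 sample limit every comparison to these cells.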
